A study of Mus musculus with 6 samples.

Results

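Cyclin-dependent kinase (CDK) inhibitors were described by every probe on the array whose platform annotation named Cdkn1a, Cdkn1b, Cdkn1c, Cdkn2a, Cdkn2b, Cdkn2c, Cdkn2d or Cdkn3. The rule found 16 probes for these 8 genes among 45281 probes on the array. It used the annotation alone and no measured value. RNA came from mouse bone marrow cells positive for GFP, CD4 and CD8, sorted 4 weeks after transplantation from mice with T cell acute lymphoblastic leukemia (T-ALL) driven by NOTCH1. The 3 control arrays are labelled wild type and the 3 others knock out, which the design text calls Klf4 deficient, and NOTCH1 leukemia, the sort gate and male sex are common to both groups. The sources used here do not give the Cre driver, the NOTCH1 construct or whether a sample pools several animals. Nor do they say that each array is a separate animal, and p-values then measure a spread between samples that may be technical.

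The CDK inhibitors brake the cell cycle. The INK4 proteins (Cdkn2a to Cdkn2d) bind CDK4 and CDK6 and keep cyclin D from activating them, while the CIP/KIP proteins (Cdkn1a to Cdkn1c) bind assembled cyclin-CDK complexes and block cyclin E-CDK2 in particular. Cdkn3 is of another kind, a phosphatase that removes the activating phosphate of CDK2. In the thymus the family sets how far precursor cells expand, and in T-ALL the Cdkn2a and Cdkn2b locus is often deleted. Klf4 encodes a zinc finger factor known in epithelial and other cells as an activator of Cdkn1a.

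Signal is probe intensity with background already subtracted, and a probe counts as above background where it exceeds 21.8 to 23.7, depending on the array, which is 3 times the spread of the values below 0. Between 37.9% and 38.5% of all probes passed on each array. The mean signal was 359 on the array labelled Klf4-deficient 3 and 417 to 445 on the other arrays. Signals given per array are as deposited, while log2 differences are normalized between arrays. Of the 13 markers of double-positive thymocytes and T-ALL measured, 12 or 13 were above background on each array. Cd4, Cd8b1 and Rag1 passed on all 6 and Cd8a on 4, falling short on the arrays labelled Klf4-deficient 1 and 3. The brightest Klf4 probe gave 29.0 ± 13.4 (SD, n = 3) on the controls and 70.7 ± 21.5 (SD, n = 3) on the arrays labelled Klf4-deficient, which is opposite to the labels. Its control values were 44, 18.4 and 24.6, with array 2 under the background limit and array 3 close to it. Where that probe lies relative to the deleted part is unknown, so it may check nothing, and the groups are named by their labels throughout. Markers of erythroid cells, of monocytes and macrophages, and of NK and cytotoxic cells separated the groups by the mean over each list. That mean was higher on all 3 arrays labelled Klf4-deficient than on any control, least so on array 1. The values of these markers are set beside the results they move with. In such bulk samples fewer cells of a type and less RNA per cell cannot be told apart.

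None of the 16 probes passed the test between the groups (0 at an adjusted p under 0.05 in limma, 2 at an unadjusted p under 0.05), against 2 of all 45281 probes (0.00442%). The unadjusted share over all probes was 6.04%. The groups did not overlap for 2 of the 16 probes, where 9.55% of all probes did so. One of them, a Cdkn1a probe, was higher on the arrays labelled Klf4-deficient (4.29% of all probes), and the other, a Cdkn2c probe, was lower (5.26% of all probes). Taking the brightest probe of each gene, 5 of the 8 genes lay above 0 and 3 below, with a median log2 difference of 0.05 beside 0.00 over all 19057 genes. For the 6 member genes above background on all 6 arrays, which leave out Cdkn2a and Cdkn2b, the median was -0.03. Every difference here is the mean of the arrays labelled Klf4-deficient less that of the controls, in normalized log2 units after 16 was added to each signal, which understates the change of dim probes. Among the 17452 probes above background on at least 3 arrays the share without overlap was 16.4%, and 10 of the 16 probes are among them, both named ones included.

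**Figure D1:**
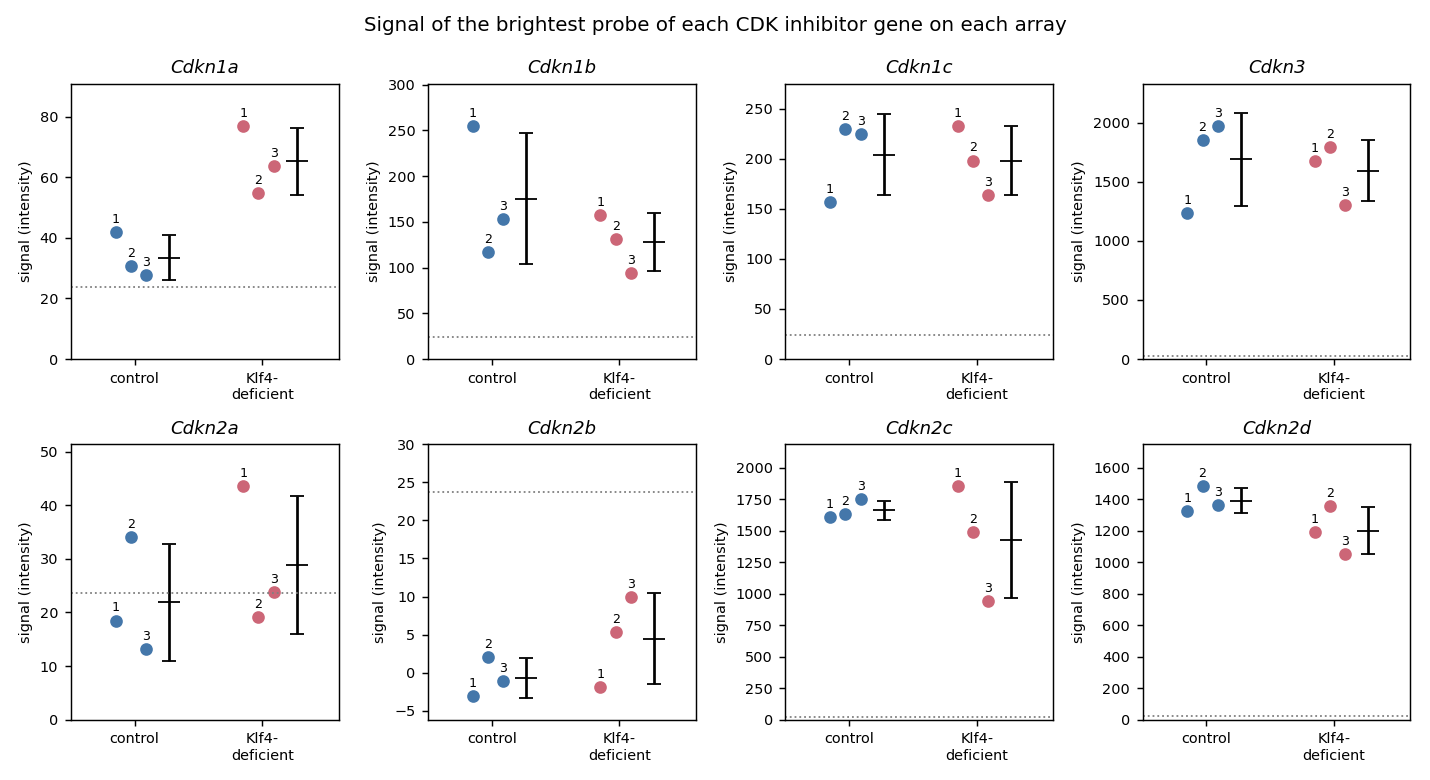
Signal (probe intensity, linear axis) of the brightest probe of each CDK inhibitor gene on the 3 control arrays (blue) and the 3 arrays labelled Klf4-deficient (red), numbered by replicate, with the mean and SD of each group in black and a dotted line at the highest background limit, 23.7. The Cdkn1a groups do not overlap, Cdkn2b lies under the limit on every array, and Cdkn2c is lowest on the array labelled Klf4-deficient 3.

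Of the 16 probes, 9 were above background on all 6 arrays, 1 on some arrays and 6 on none. Every gene except Cdkn2a and Cdkn2b had at least 1 probe above background on all 6 arrays. Cdkn1a and Cdkn2c had several such probes, and in neither gene did all of them share 1 pattern over the arrays.

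Cdkn1a encodes p21, the inhibitor through which p53 arrests the cell cycle. The RefSeq table lists 2 start sites for Cdkn1a, and both windows (250 bases before to 50 after a start, build GRCm38.p6) are shown because this gene had the largest difference of the family. Capitals of 5 letters mark CACCC boxes, the core that Krüppel-like factors can bind (CACCC, or GGGTG on the other strand), and the longer capitals mark p53 half-sites.
Cdkn1a, chr17:29090729-29091028, plus strand: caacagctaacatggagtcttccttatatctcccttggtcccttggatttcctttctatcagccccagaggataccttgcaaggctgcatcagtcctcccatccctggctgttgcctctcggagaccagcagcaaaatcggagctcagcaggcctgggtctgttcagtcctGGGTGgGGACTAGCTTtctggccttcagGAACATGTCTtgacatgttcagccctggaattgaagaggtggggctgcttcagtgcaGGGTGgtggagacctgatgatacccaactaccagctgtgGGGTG
Cdkn1a, chr17:29093519-29093818, plus strand: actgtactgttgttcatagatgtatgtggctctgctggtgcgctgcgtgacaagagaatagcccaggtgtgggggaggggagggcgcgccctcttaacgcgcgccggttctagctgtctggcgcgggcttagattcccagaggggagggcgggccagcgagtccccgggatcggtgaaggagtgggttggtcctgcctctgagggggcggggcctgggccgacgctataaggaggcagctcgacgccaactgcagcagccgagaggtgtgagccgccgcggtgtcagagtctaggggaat
The first window holds 3 CACCC boxes and 2 p53 half-sites, and the second holds 0 of either. Over all 32851 windows of the table, 57.5% hold a CACCC box and 8.36% a p53 half-site. The GC box (GGGCGG or CCGCCC), which Sp factors can bind, occurs 0 times in the first window and 2 times in the second, against 35.7% of all windows with at least 1. Which start the array's probes report is not known here.

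The Cdkn1a probe with the highest mean over the 6 arrays, ILMN_2634083, gave 41.9, 30.8 and 27.7 on control arrays 1, 2 and 3. On the arrays labelled Klf4-deficient 1, 2 and 3 it gave 77.1, 55 and 63.9. All 3 of the latter lay above every control, and the lowest control was close to the background limit. The log2 difference of this Cdkn1a probe was 0.79 ± 0.17 (SE, 95% interval 0.34 to 1.23), a fold of 1.72, and it did not pass (unadjusted p = 0.0068, adjusted p = 0.587 from limma). It was larger in size than 99% of all probes' differences, a set that includes the 6841 probes at or below 0 on all arrays. This probe is the brightest of the gene only through the arrays labelled Klf4-deficient, since on the controls its mean was 33.5 against 38.7 for ILMN_2846775, so the value taken for the gene depends on the difference itself.

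The second Cdkn1a probe above background, ILMN_2846775, did not separate the groups. It gave 29.2, 40.2 and 46.8 on the controls and 50.7, 33.5 and 43.4 on the arrays labelled Klf4-deficient. Its difference was 0.15 ± 0.20 (SE, adjusted p = 0.926 from limma). On control array 1 the first probe was at its highest among the controls and the second at its lowest. The third, ILMN_2846776, was under background on all 6 arrays, between -4.5 and 10, and gives no fold. With the mean of the 3 probes Cdkn1a differed by 0.44, with an adjusted p of 0.631.

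Markers of other cells also separated the groups, but by the mean over each list. Gene by gene, the groups did not overlap for 5 of 12 erythroid, 7 of 17 monocyte and macrophage and 4 of 11 NK and cytotoxic markers. All of these were higher on the arrays labelled Klf4-deficient, as were 5.48% of all genes. Relative to the control mean, ILMN_2634083 lay at 0.98, 0.54 and 0.84 on the arrays labelled Klf4-deficient 1, 2 and 3, highest on array 1. On the same arrays the erythroid markers (12 measured) lay at 0.22, 0.92 and 1.56, against -0.34, 0.14 and 0.20 on the controls. The monocyte and macrophage markers (17 measured) lay at 0.26, 0.73 and 1.42 against -0.10, 0.07 and 0.03, and the NK and cytotoxic markers (11 measured) at 0.25, 0.54 and 0.69 against -0.06, 0.04 and 0.02. In all 3 lists the lowest array of the labelled group was array 1, and the part of these markers in the Cdkn1a values was not tested. Of the NK and cytotoxic markers 4, 5 or 6 were above background on an array, and Ncr1, Gzmb, Klrk1, Eomes and Tbx21 on none. In that list 7 genes lay above 0 and 3 below, among the latter Prf1 (-0.18) and Klrb1c (-0.04). Without the array labelled Klf4-deficient 3 the Cdkn1a difference was 0.76, with an adjusted p of 0.73.

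Cdkn1b encodes p27, which holds CDK2 inactive in resting lymphocytes and is controlled mainly by degradation. One of its 3 probes, ILMN_2638428, was above background, with 255.2, 117.2 and 153.5 on the controls and 157.4, 131 and 94.4 on the arrays labelled Klf4-deficient. The groups overlapped, and control array 1 stood well above the other 5. The difference was -0.30 ± 0.28 (SE, adjusted p = 0.824 from limma), and -0.06 ± 0.20 without control array 1. The array labelled Klf4-deficient 3 was the lowest. Probe ILMN_2923960 stayed between 6.4 and 12.7 and ILMN_1228598 below 0 on every array.

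Cdkn1c encodes p57, an imprinted inhibitor best known from development and from quiescent stem cells. Its single probe gave 157.1, 229.6 and 224.7 on the controls and 232.9, 198.1 and 163.3 on the arrays labelled Klf4-deficient. Both groups spanned nearly the same range, and the lowest value of all was control array 1. The difference of Cdkn1c was 0.05 ± 0.20 (SE, 95% interval -0.48 to 0.58, adjusted p = 1 from limma).

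In the INK4 family Cdkn2c and Cdkn2d were measured well and Cdkn2a and Cdkn2b were at or under background. Cdkn2a gives rise to p16Ink4a and p19Arf from separate first exons with shared later exons, the first acting on CDK4 and CDK6 and the second on Mdm2 and so on p53. Probe ILMN_1221177 of Cdkn2a gave 18.5, 34 and 13.1 on the controls and 43.5, 19.2 and 23.9 on the arrays labelled Klf4-deficient. It passed the background limit on 1 control array and on 2 arrays labelled Klf4-deficient, and the groups overlapped. Its difference was 0.29 ± 0.32 (SE, adjusted p = 0.879 from limma), and single arrays decided its size: it was 0.07 without the array labelled Klf4-deficient 1, 0.10 without control array 3, 0.51 without control array 2 and 0.45 without the array labelled Klf4-deficient 2. The other Cdkn2a probes were under background on all 6 arrays, ILMN_1226950 below 0 throughout and ILMN_1227342 between -0.8 and 12.9. The annotation assigns the first pair of probes to one RefSeq transcript of the gene and ILMN_1227342 to the other, and it does not say whether a probe lies in the shared exons. Cdkn2b, which encodes p15 and neighbours Cdkn2a, had 1 probe, between -3.1 and 9.9 and so under background on every array. A signal under background does not show that the transcript was absent.

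Cdkn2c encodes p18, the INK4 protein most tied to thymocyte expansion in mouse knockouts. Its start sites are shown because its probes differ in how they vary over the arrays, with CACCC boxes in capitals and the sequence read 5′ to 3′ on the minus strand of GRCm38.p6.
Cdkn2c, chr4:109666707-109667006, minus strand: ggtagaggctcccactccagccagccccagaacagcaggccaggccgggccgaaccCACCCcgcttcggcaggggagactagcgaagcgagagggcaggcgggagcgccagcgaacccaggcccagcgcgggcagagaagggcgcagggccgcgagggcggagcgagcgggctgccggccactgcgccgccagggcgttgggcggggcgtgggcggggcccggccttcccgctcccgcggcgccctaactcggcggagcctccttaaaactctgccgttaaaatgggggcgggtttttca
Cdkn2c, chr4:109665323-109665622, minus strand: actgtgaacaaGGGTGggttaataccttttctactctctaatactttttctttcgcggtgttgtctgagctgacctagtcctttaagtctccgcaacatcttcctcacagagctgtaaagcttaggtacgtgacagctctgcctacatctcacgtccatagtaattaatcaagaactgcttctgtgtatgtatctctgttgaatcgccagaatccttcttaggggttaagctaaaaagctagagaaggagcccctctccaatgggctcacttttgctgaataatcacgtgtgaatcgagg
Each window holds 1 CACCC box. The upstream window holds 4 GC boxes and the downstream one 0, and the downstream window holds 1 E-box (CACGTG, the site of Myc and related factors), found in 7.15% of all windows. Which start each probe reports is not known here.

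The brightest Cdkn2c probe, ILMN_1228366, gave 1607.1, 1630.7 and 1752.5 on the controls and 1853.8, 1488.4 and 939.7 on the arrays labelled Klf4-deficient. Array 1 of the latter was the highest of all 6 and array 3 the lowest, so the controls lay inside the range of the other group. After normalization arrays 1 and 3 of that group lay at 0.19 and -0.50 relative to the control mean. The SD of the signal before normalization was 78 on the controls and 460 on the arrays labelled Klf4-deficient. The difference was -0.15 ± 0.19 (SE, adjusted p = 0.904 from limma), and 0.02 ± 0.13 without the array labelled Klf4-deficient 3. Probe ILMN_2420939 had the same order of arrays within the labelled group, with 476.6, 540.1 and 579.9 on the controls and 576, 461.3 and 277.9 on the arrays labelled Klf4-deficient (-0.22 ± 0.24, adjusted p = 0.861 from limma, and -0.01 without array 3).

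The third Cdkn2c probe, ILMN_1215651, had another pattern. It gave 192.7, 128.5 and 174.7 on the controls and 120.5, 112.1 and 118.1 on the arrays labelled Klf4-deficient, all 3 of them under every control. On array 3, where the other Cdkn2c probes were lowest, it did not stand apart. Its difference was -0.36 ± 0.13 (SE, 95% interval -0.69 to -0.03), a fold of 0.779, and did not pass (unadjusted p = 0.0388, adjusted p = 0.795 from limma). With 1 array left out it ran from -0.47 to -0.28. The largest was without control array 2, the control nearest to the other group. Only in that fit was the unadjusted p from limma under 0.05 (0.00753). Over the 6 fits the adjusted p lay between 0.688 and 0.96. The annotation gives this probe and ILMN_1228366 the same RefSeq transcript and ILMN_2420939 a cDNA clone, and a choice among them changes what is said of Cdkn2c.

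**Figure D2:**
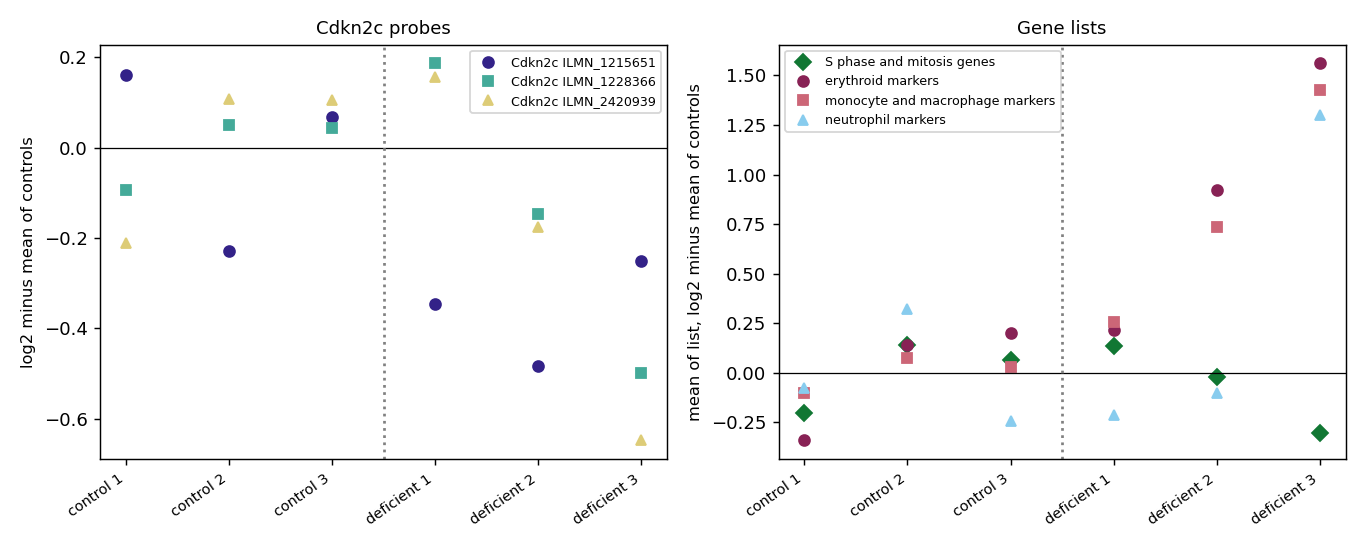
Normalized log2 value minus the mean of the 3 controls for each array, for the 3 Cdkn2c probes (left) and as the mean over the genes of 4 lists (right), with a dotted line between the groups. ILMN_1228366 and ILMN_2420939 reach -0.50 and -0.65 on the array labelled Klf4-deficient 3, where the S phase and mitosis genes are at -0.31 and the erythroid, monocyte and neutrophil markers at 1.56, 1.42 and 1.30, while ILMN_1215651 is at -0.25.

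The array labelled Klf4-deficient 3, where ILMN_1228366 and ILMN_2420939 were low, also had the highest summed signal of erythroid, monocyte and neutrophil markers. The sums of NK, B cell, megakaryocyte and stromal markers were highest on other arrays. By the normalized mean over each list, the NK and cytotoxic (0.69) and B cell (0.20) markers were highest on that array too. There 17 of 17 monocyte and macrophage markers were above background, against 12 or 13 on the control arrays, and their summed signal was 15769 against 5566 to 6594 on the controls and 6161 and 7787 on the arrays labelled Klf4-deficient 1 and 2. Of 16 neutrophil markers 15 were above background on every array and Mmp8 on none, and their summed signal was 151889 on that array against 77094 to 107276 in the controls. For the 12 erythroid markers the sum was 94596 against 64175 to 76244, with Epb42 under background on all 6 arrays. The part of these markers in the Cdkn2c values was not tested.

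Cdkn2d encodes p19Ink4d, which acts on CDK4 and CDK6 like p18. Its probe gave 1327.1, 1481.9 and 1363.5 on the controls and 1189.6, 1356.4 and 1055.4 on the arrays labelled Klf4-deficient. The second of the latter lay between control arrays 1 and 3, so the groups overlapped. After normalization array 3 of that group also lay within the controls, at -0.08 relative to their mean, and array 1 was lowest at -0.20. The difference of Cdkn2d was -0.10 ± 0.09 (SE, 95% interval -0.34 to 0.14, adjusted p = 0.824 from limma), the narrowest interval among the brightest probes of the family.

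Cdkn3, the CDK2 phosphatase, is made mostly in dividing cells. Its probe gave 1235.8, 1854.2 and 1974.1 on the controls and 1677.9, 1797.3 and 1305.3 on the arrays labelled Klf4-deficient. The lowest array was control 1, followed by the array labelled Klf4-deficient 3, and the other 4 lay between 1677.9 and 1974.1. The difference was 0.04 ± 0.21 (SE, adjusted p = 1 from limma), and -0.19 ± 0.06 without control array 1 (adjusted p = 0.797).

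Control array 1 was thus the extreme control for several members at once. It had the highest Cdkn1b (0.49 above the control mean on the log2 scale) and the lowest Cdkn1c (-0.39) and Cdkn3 (-0.46). The mean of the 21 measured S phase and mitosis genes, a list with Mcm2 to Mcm7, Top2a and Plk1, lay at -0.20 on that array, against 0.14 and 0.06 on the other controls. It was 0.13, -0.02 and -0.31 on the arrays labelled Klf4-deficient 1, 2 and 3, so the lowest value of each group fell on the array with the lowest Cdkn3 of that group.

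**Figure D3:**
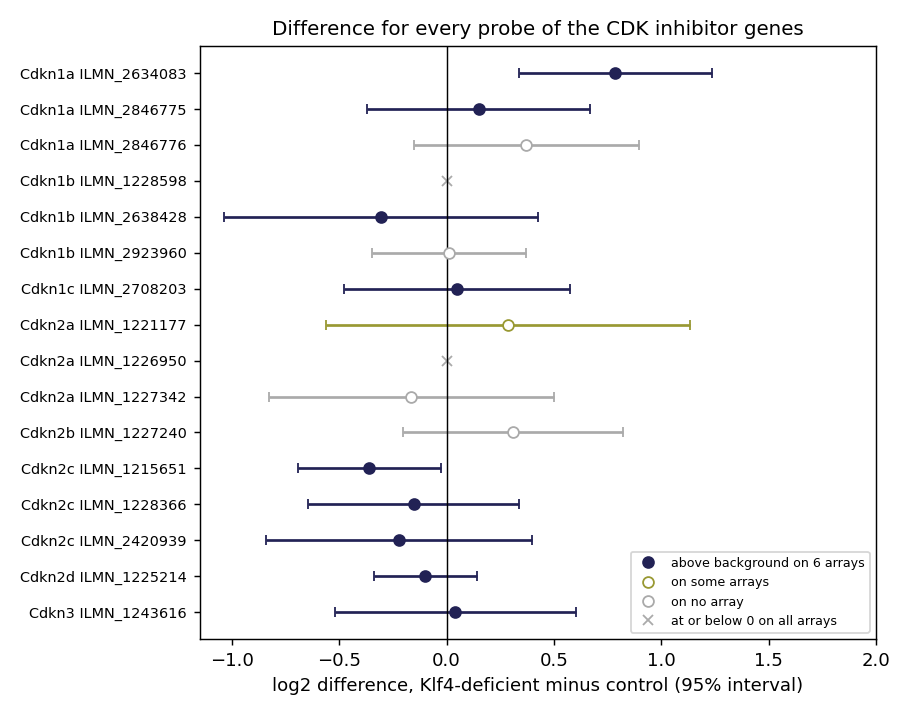
Log2 difference, Klf4-deficient minus control, with its 95% interval from limma, for all 16 probes of the 8 genes, filled where the probe was above background on all 6 arrays. The intervals of Cdkn1a ILMN_2634083 (0.34 to 1.23) and Cdkn2c ILMN_1215651 (-0.69 to -0.03) leave out 0 before adjustment, and crosses mark probes at or below 0 on every array, for which no difference can be formed.

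The genes on which the inhibitors act did not move as a group. Over the brightest probes of all genes 0.00525% passed at the adjusted threshold and 7.61% had an unadjusted p under 0.05. Of the 15 measured cyclins and CDKs, 0 passed at the adjusted threshold in limma, 0 had an unadjusted p under 0.05, and their median difference was 0.06. The most extreme by p was Ccnd2, a D-type cyclin that the INK4 proteins keep from its kinase, at 120.4, 163 and 144.7 on the controls and 139.8, 234.3 and 276.1 on the arrays labelled Klf4-deficient (0.60 ± 0.33 SE, adjusted p = 0.824 from limma). Arrays 2 and 3 of the latter lay above all controls and array 1 did not. Ccnd1 differed by 0.58 ± 0.37 and Mnat1, the assembly factor of the CDK-activating kinase, by -0.22 ± 0.13. Ccnd1 and Ccnd2 were highest on the array labelled Klf4-deficient 3, where the erythroid, monocyte and neutrophil markers were also highest, and the part of those markers was not tested. Ccnd3, the other D-type cyclin, named after its value was seen, differed by 0.07 with overlap of the groups.

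Of the 5 enzymes that set the inhibitory phosphates of CDKs, 0 passed in limma, 0 had an unadjusted p under 0.05 and the median was -0.11, with Cdc25b at -0.16 ± 0.13 (SE), Cdc25a at -0.11 ± 0.16 and Pkmyt1 at 0.16 ± 0.25. Among the 13 genes of the Rb family, E2F factors and their partners, 0 passed, 0 had an unadjusted p under 0.05 and the median was -0.03. E2f4, a repressor that works with the Rb relatives p107 and p130, differed by 0.23 ± 0.09, E2f5 by 0.26 ± 0.12 and E2f7 by -0.26 ± 0.22. The 21 S phase and mitosis genes, which run when the inhibitors are released, had a median of -0.06 with 0 past the threshold and 1 at an unadjusted p under 0.05 (Ttk, under background on all 6 arrays), and Mcm3, Mcm7 and Mcm6 differed by -0.23 ± 0.20, -0.15 ± 0.15 and -0.12 ± 0.13. The adjusted p of these 9 genes lay between 0.824 and 0.96 in limma.

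Of 12 genes of p27 and p21 turnover 0 passed in limma and 0 had an unadjusted p under 0.05, with a median of 0.09. Skp2, the ubiquitin ligase subunit that marks p27 for destruction, was the one list gene of the 12 whose groups did not overlap, against 6.09% of all genes lower in this way. It gave 120.7, 124.3 and 110.5 on the controls and 103.3, 81.2 and 62.2 on the arrays labelled Klf4-deficient (-0.41 ± 0.16 SE, unadjusted p = 0.0504, adjusted p = 0.824 from limma). Skp1 and Cul1, also parts of that ligase, differed by -0.18 ± 0.09 and 0.13 ± 0.11, with overlap in both.

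Known regulators of Cdkn1 transcription had a median difference of 0.02 over 19 genes, with 0 past the adjusted threshold in limma and 4 at an unadjusted p under 0.05 (7.61% of all genes). The list held 21 genes, of which Trp53, the gene of p53, and Smad4 were not measured. The groups did not overlap for 3 higher and 2 lower genes (5.48% and 6.09% of all genes). Sp1, which binds GC boxes such as those at the downstream Cdkn1a start, gave 53.3, 45.2 and 56 on the controls and 68.1, 65.2 and 59.1 on the arrays labelled Klf4-deficient (0.31 ± 0.07 SE, unadjusted p = 0.00963, adjusted p = 0.624 from limma). Zbtb17, the Myc partner Miz1 that acts on Cdkn1a and Cdkn2b, gave 2426.6, 2335.2 and 2528.7 on the controls and 2237.2, 2244.7 and 1660.8 in the other group (-0.15 ± 0.05 SE, adjusted p = 0.775 from limma). The Klf4 probe itself differed by 1.03 ± 0.32 (adjusted p = 0.738 from limma), with 2 of its 3 control values above background. None of the 3 passed, although the groups did not overlap in any of them.

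Regulators of the Cdkn2 genes, mostly Polycomb proteins that silence the Cdkn2a locus, had a median of 0.01 over 22 genes, with 0 past the adjusted threshold in limma and 5 at an unadjusted p under 0.05 (7.61% of all genes). The groups did not overlap for 4 higher and 2 lower genes (5.48% and 6.09% of all genes). Ring1, a ubiquitin ligase of Polycomb complex 1, gave 815.6, 772.7 and 856.4 on the controls and 655.3, 655.6 and 559.6 on the arrays labelled Klf4-deficient. Each of the latter lay under every control by more than the spread within a group, and the difference was -0.28 ± 0.03 (SE, unadjusted p = 0.000327), yet it did not pass over all probes (adjusted p = 0.326 from limma). Eed, a core part of Polycomb complex 2, gave 68.3, 94.7 and 84.5 against 112.9, 127.2 and 121.1 (0.54 ± 0.15 SE, adjusted p = 0.686 from limma). Dmtf1, an activator of the Arf promoter, differed by 0.12 ± 0.04 (SE, adjusted p = 0.751 from limma). It gave 3727.9, 3416.4 and 3741.5 on the controls and 3880.2, 4156.2 and 3089.6 on the arrays labelled Klf4-deficient. Its groups thus overlapped in signal and were separate only after normalization. The differences of Ring1, Eed and Dmtf1 point both ways, and Cdkn2a itself was at background.

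**Figure D4:**
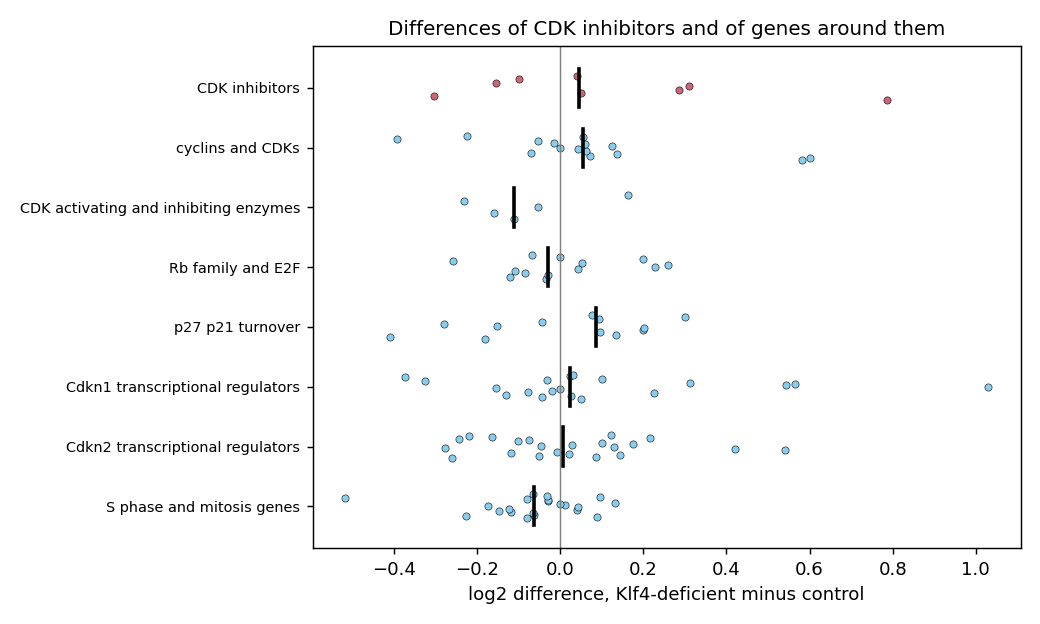
Log2 difference, Klf4-deficient minus control, of the brightest probe of each gene (points) and the median (black bar) for the CDK inhibitors and 7 lists of genes around them. The medians lie between -0.11 and 0.09, and the highest points are Klf4 at 1.03 and Cdkn1a at 0.79.

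Likeness over the arrays was taken for the member with the brightest probe in each family, as Pearson's r over the 6 arrays against 8360 other genes above background on all of them. Closest to Cdkn2c (ILMN_1228366) were Khsrp (r = 0.994), Vars (r = 0.991) and Stab1 (r = 0.990), and 84 genes had an r above 0.95. All 3 shared its low value on the array labelled Klf4-deficient 3, at -0.34, -0.43 and -0.38 relative to the control mean. Closest to Cdkn1c were Dennd6a (r = 0.991), Dnmt3b (r = 0.984) and Fmc1 (r = 0.976), which shared its low value on control array 1, and 10 genes had an r above 0.95. The 6 points mix both groups, and the genes were picked as the highest of so many, so the values describe these arrays.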

How the data were processed

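Each of the 6 samples was measured on 1 Illumina bead array. The authors deposited linear probe intensity, some of it below 0 as after background subtraction, and the submitters' processing notes name BeadStudio. How background was subtracted and whether arrays were normalized is not stated in the sources used here.

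Values below 0 were set to 0, 16 was added, and log2 values were quantile normalized. All 45281 probes were fitted with limma 3.58.1 in R 4.3.3 (lmFit, eBayes with a variance trend) and adjusted by Benjamini-Hochberg, threshold 0.05. Of these probes 6841 were at or below 0 on all arrays and carry no difference. A probe is named by the platform annotation. Probes with several symbols (18) or none (10378) named no gene. For lists the brightest probe of each of 19057 genes was taken. An exact permutation test of 3 against 3 cannot go below p = 0.10, and was not run. The fit was also run on simulated data with the same spread for every probe. In these data the spread differs between probes, so nothing is drawn from that run. The number of arrays limits the precision.

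The members and lists were chosen with earlier results of these data known. Named were all members, Klf4, up to 3 genes per list by smallest p among those above background on at least 3 arrays, and the genes most like a member. Promoter windows come from RefSeq's table on GRCm38.p6, which held 10 windows for 7 of the 8 members. Alternatives were other normalizations, offsets of 1 and 50, bright probes alone, other variance models, weighted arrays, a block for the replicate number, other ways to take a gene's probes, and leaving out each array.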

Additional observations from a re-analysis of the deposited data

How the results depend on the processing

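The call of the members did not depend on the setting: 0 of 8 genes passed in any of 18 alternatives (17 for Cdkn2b, which the fit of bright probes alone leaves out). Cdkn1a (ILMN_2634083) stayed higher in the 17 that test this probe, from 0.51 to 1.04 with adjusted p from 0.373 to 0.872, and the mean of its 3 probes was 0.44. The count of called probes, 2 in the fit described, was 0 with median centring, with the replicate block and with probes averaged per gene, and 1 with cyclic loess and among probes above background. It ran from 24 to 46 when 1 array was left out, of which 1 in each case was above background on at least 3 arrays. Cdkn1c changed sign with median centring (-0.01), with no normalization between arrays (-0.03) and when 1 array was left out (-0.14 to 0.18, below 0 without control array 1 and, at -0.04, without the array labelled Klf4-deficient 1). Cdkn3 did so with median centring (-0.04), with no normalization (-0.07) and without control array 1 (-0.19, with the other arrays up to 0.16). Cdkn2c did so without the array labelled Klf4-deficient 3 (0.02, with the others down to -0.32). The median of the 8 genes, 0.05, ran from -0.10 to 0.17 when 1 array was left out. With no normalization the medians were -0.01 for cyclins and CDKs, -0.11 for the Rb family and E2F, -0.02 for turnover, -0.07 for Cdkn1 regulators and -0.10 for Cdkn2 regulators, while the median of probes above background on at least 3 arrays was itself -0.11. With median centring they were 0.00 for turnover, -0.04 for Cdkn1 regulators and -0.08 for Cdkn2 regulators, and turnover was 0.00 with the mean of probes. With 1 array left out the medians ran from -0.03 to 0.10 for cyclins and CDKs, from -0.06 to 0.05 for the Rb family and E2F, from 0.01 to 0.11 for turnover, from -0.28 to -0.05 for the enzymes that set inhibitory phosphates, and from -0.16 to 0.11 for S phase and mitosis genes, above 0 without the array labelled Klf4-deficient 3 (0.11) or control array 2 (0.02). Same-numbered arrays did not deviate together (correlation 0.195, -0.0874 and -0.0826 across probes), so the numbers were not taken as pairs, and with the replicate block 0 probes passed. The cause of these shifts was not tested. Signal near background limits what Cdkn1a can show, and Cdkn2b was under background on every array.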
